A study of Mus musculus with 8 samples.

Results

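Lin28a, Lin28b, Igf2bp1, Igf2bp2, Igf2bp3, Grsf1, Pabpc1, Msi1 and Msi2 encode RNA-binding proteins of stem and progenitor cells. These 9 genes were taken by symbol from 26608 symbols in the count tables, and all 9 were listed there. The list was chosen by function with the count values of these libraries known, among them the difference of Grsf1 between protrusions and open neural tube and the level of Lin28a, so the differences given here describe the members and support nothing further. The libraries were made by SAGE, which counts 1 short tag near the 3′ end of each transcript, from FVB mouse embryos of diabetic dams at embryonic day 8.5. Tissue was cut by laser from cryosections. The 4 open neural tube libraries (9, 10, 13 and 14) hold normally shaped neural tube just anterior of closure site 1, where the neural folds first meet. The 4 protrusion libraries hold outgrowths cut from the open neural plate, of which protrusion 1 is labelled separated and protrusions 2, 3 and 4 attached. All 8 libraries come from diabetic pregnancies, so no library shows the tissue without maternal diabetes. Nothing in the labels says that the libraries of a group came from separate embryos. The titles of protrusions 1 and 2 differ only in their last digit, and that of protrusion 3 begins like theirs. The p-values therefore speak only of variation among these 8 libraries, some of which may be technical.

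LIN28A and LIN28B are cold-shock domain proteins that bind precursors of the let-7 microRNAs and block their maturation, which keeps embryonic cells in a proliferative, undifferentiated state. Let-7 in turn represses the mRNAs of LIN28 and of many growth regulators, so the proteins and the microRNA oppose each other. The IGF2BP proteins form particles with growth-related mRNAs and protect or transport them, and the Musashi proteins repress the translation of differentiation factors in neural stem cells. PABPC1 coats poly(A) tails in the cytoplasm and promotes translation. GRSF1 binds G-rich RNA and works in mitochondrial RNA granules.

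What SAGE could count of each gene is set by the last CATG in the transcript, the site that the enzyme NlaIII cuts. The tags below are the 27 bases from that site in the longest protein-coding transcript of GENCODE M21 (GRCm38), with CATG in capitals. They show whether a member can be told from other genes, and are predictions, since the submitters' own assignment of tags to genes is not given in the sources used.
Lin28a: CATGctgacttttccttcccttctctt
Lin28b: CATGatagaaaataaaagacacaatgt
Igf2bp1: CATGatgaataaataccttttaccacc
Igf2bp2: CATGacactaccagactgcgatgccgg
Igf2bp3: CATGttttactttcatttaagcactgg
Grsf1: CATGtataattgtgtgaaagatctgtg
Pabpc1: CATGctcgagtctccagagtctctccg
Msi1: CATGgtgttttgaagccagcaagttcc
Msi2: CATGtggacataaatgtatctaaataa
For 8 of the 9 members this tag was found in the transcripts of no other gene, and there it lay in the 3′ UTR. The Pabpc1 tag lay in coding sequence and occurred in 1 other gene, the pseudogene Gm16580, so its reads cannot be assigned with certainty. The paralogs carried different tags, so by this prediction the reads of these transcripts of Lin28a and Lin28b, of the 3 Igf2bp genes and of Msi1 and Msi2 do not mix. The tag was in 1 of 4 protein-coding transcripts of Lin28a, Msi1 and Msi2 and 1 of 2 of Igf2bp2. It was in 2 of 5 of Grsf1 and 2 of 3 of Pabpc1. Tags of the other transcripts were not checked.

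Because LIN28 and let-7 act on each other, 3′ UTRs of the members were searched for the let-7 seed match. All 8 let-7 members a to i with a 5p sequence in RefSeq (GRCm38.p6) shared the seed GAGGUAG at bases 2 to 8. Its match in mRNA is CTACCTC, searched on the transcribed strand only. The mature let-7a is shown with its seed in capitals, followed by the first match in each 3′ UTR that held any, with the match in capitals.
let-7a: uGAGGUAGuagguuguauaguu
Lin28a: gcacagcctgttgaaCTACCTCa
Lin28b: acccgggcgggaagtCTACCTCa
Igf2bp1: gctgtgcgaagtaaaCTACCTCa
Igf2bp2: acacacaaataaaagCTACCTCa
Igf2bp3: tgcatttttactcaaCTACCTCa
The match occurred 2 times in the 3′ UTR of Lin28a, 4 times in Lin28b, 4 times in Igf2bp1, 1 time in Igf2bp2 and 1 time in Igf2bp3. It was not found in the 3′ UTR of Grsf1, Pabpc1, Msi1 or Msi2. Of 20952 genes with a 3′ UTR, 8.85% held at least 1 match. Among 500 genes with a 3′ UTR of like length, 15.2% did for Lin28a, 23.0% for Lin28b and 32.8% for Igf2bp1, and 2%, 0.4% and 0.2% held as many. For Igf2bp2 and Igf2bp3, with 1 match each, 11.4% and 13.6% of genes of like length held at least that. A match is a run of letters and not a shown site, and let-7 itself was not measured.

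Total counts ranged from 5668054 to 16655583 reads in open neural tube and from 6112477 to 11430602 in protrusions, so 3 reads stand for 0.180 to 0.529 CPM, the reads of a gene per 1000000 reads of its library. Thinned to 5668054 reads, the open neural tube libraries had a read for 9920 to 11248 genes, and protrusions for 14409 to 15551. This gap ran along with the groups, and its part in the differences was not tested. Of the open neural tube values of genes with a mean of at least 100 CPM over all 8 libraries, 0.0132% were at 0. That range held 8 of the 9 members. Msi2 was in it only through protrusions, since its open neural tube mean was 76.8 CPM. The share of zeros does not speak of a loss of level short of 0. The 11 neural plate markers summed to 232 to 1662 CPM in open neural tube and 454 to 1227 CPM in protrusions, but went different ways. In attached protrusions Zic1 was at 0.430 to 1.05 CPM and Dbx1 at 0.175 to 0.601 CPM. In open neural tube their means were 143 and 128 CPM. Single open neural tubes ran from 4.74 to 352 CPM and from 2.22 to 231 CPM, both lowest in library 13. The separated protrusion held 51.0 and 27.5 CPM. Mean Cdh2 and Ncam1 were 115 and 128 CPM in protrusions and 68.0 and 60.1 CPM in open neural tube. Open neural tube 13 stood apart with Sox2 at 30.9 CPM, against 287 to 550 CPM in the other 3. Erythroid markers summed to 1.06 to 1007 CPM in open neural tube, with 923 CPM in library 13 and 1007 CPM in library 14, and to 0.430 to 45.8 CPM in protrusions, with Hbb-y at 0 in all 8. The 7 endothelial markers summed to 6.42 to 165 CPM, highest in library 13, and to 0.860 to 34.5 CPM, with Kdr and Flt1 at 0 in all 4 open neural tubes. The 9 markers of primitive streak and axial progenitors summed to 2.96 to 26.3 CPM in open neural tube and 155 to 1092 CPM in protrusions, with Nodal, Mixl1, Eomes and Nkx1-2 at 0 in all 4 open neural tubes. Eomes and Nkx1-2 were low in protrusions too, at 0.327 to 0.700 and 0.491 to 4.73 CPM. The 6 markers of paraxial mesoderm summed to 66.3 to 383 CPM and 500 to 978 CPM, with Msgn1 at 0 in all 4 open neural tubes and in protrusion 1. Of these, Tbx6 and Dll3 did not overlap between the groups, while Meox1, Tcf15 and Foxc2 did. Neither the streak sum nor the mesoderm sum overlapped between the groups, and their part in the members' differences was not tested. In tissue samples, fewer cells of a type and less RNA per cell cannot be told apart.

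The question put to the members was how their transcripts differ between protrusions and open neural tube. Grsf1 and Pabpc1 rose in protrusions, Lin28a was among the most abundant transcripts of every library, and the Igf2bp genes stood in another order in attached protrusions. Of the 9 members, 8 had enough reads to be tested with edgeR's quasi-likelihood test, and 2 passed a Benjamini-Hochberg adjusted p of 0.05 over 11036 genes, both higher. The share of all tested genes that passed was 0.607%, with 0.281% higher and 0.326% lower. With the separated protrusion left out, the same 2 members passed over 11466 genes, of which 1.5% passed, 0.759% as higher and 0.741% as lower (87 and 85 genes, or 130 and 83 without a scaling factor). The members' median log2 fold change was 0.46, beside 0.08 for all genes, and 0.55 beside 0.09 for attached protrusions alone. Both comparisons use the same 4 open neural tubes. The members were chosen with these differences known, so nothing is read from their share.

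**Figure D1:**
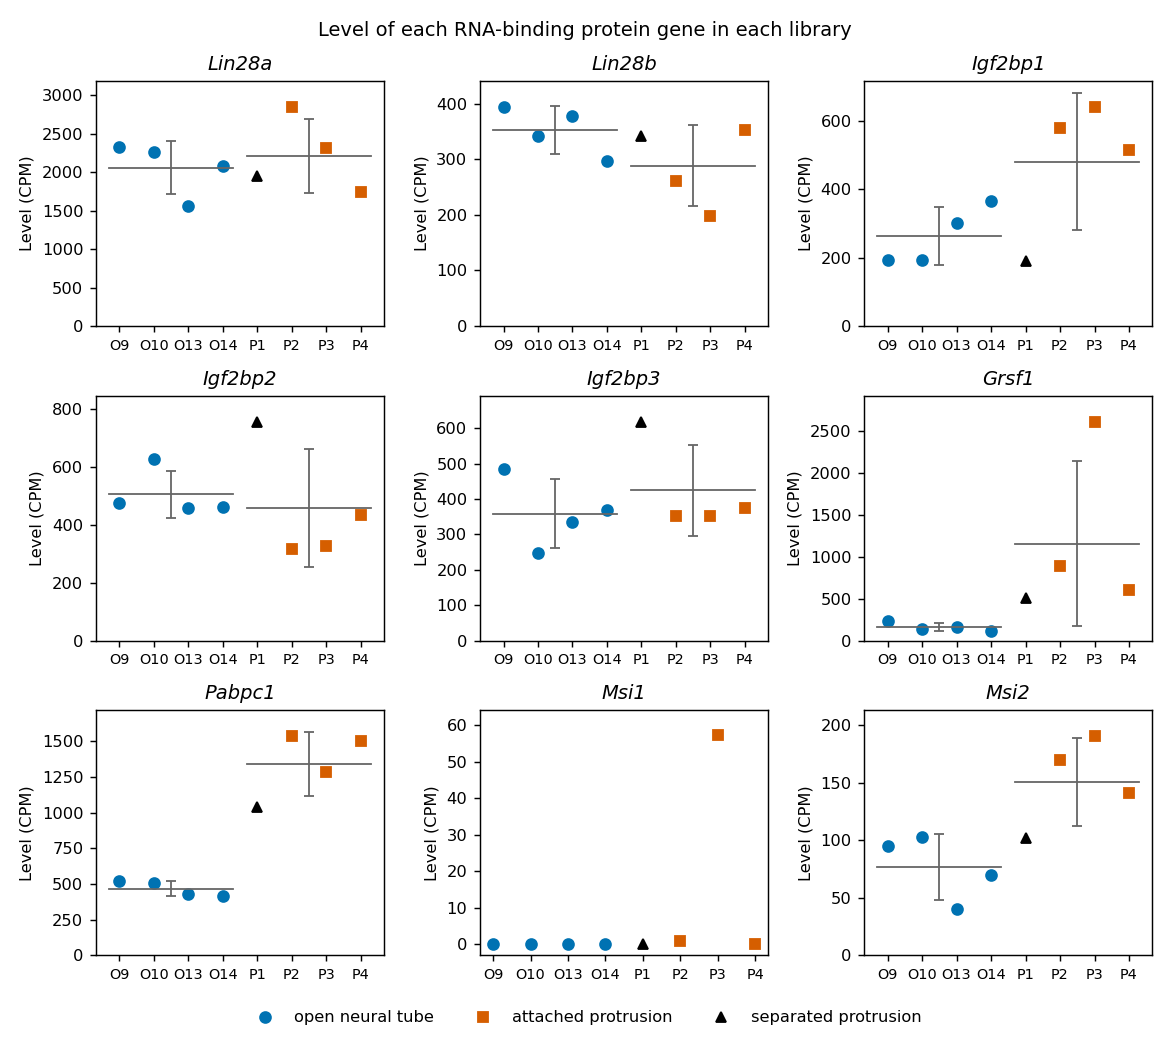
Level of each of the 9 genes in CPM (vertical axes, linear, each panel with its own scale) in open neural tubes 9 to 14 (O, blue circles), attached protrusions 2 to 4 (P, orange squares) and the separated protrusion 1 (black triangle). Grey lines give the mean and SD of each group of 4, left out for Msi1; all 4 protrusions lie above all 4 open neural tubes for Grsf1 and Pabpc1, and protrusion 3 stands alone for Msi1 at 57.2 CPM.

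Lin28a was the most abundant member. It stood at 2323, 2265, 1566 and 2077 CPM in open neural tubes 9, 10, 13 and 14. The separated protrusion held 1957 CPM, and the attached protrusions 2, 3 and 4 held 2847, 2319 and 1745 CPM. The groups overlapped throughout, and the lowest value was that of open neural tube 13. Among all genes with a read, Lin28a ranked between 31st and 74th from the top in the 8 libraries. Its fitted log2 fold change in protrusions was 0.02 ± 0.20 (SE; edgeR adjusted p = 0.978), with a 95% interval from −0.42 to 0.46. The interval leaves room for a change of that size in either direction.

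Lin28b, the paralog of LIN28A that acts in the nucleus as well, stood at 394, 342, 378 and 297 CPM in the open neural tubes and at 343 CPM in the separated protrusion. In attached protrusions 2, 3 and 4 it stood at 260, 198 and 353 CPM. Protrusions 2 and 3 lay below every open neural tube, while protrusion 4 lay within their range. The log2 fold change was −0.37 ± 0.23 over all protrusions (edgeR adjusted p = 0.511) and −0.47 ± 0.25 over attached ones (adjusted p = 0.396), neither past the threshold. Lin28b made up 12.5% to 19.4% of the Lin28 reads in open neural tube. Its share was 8.38% in protrusion 2 (exact binomial 95% interval 8.01% to 8.76%) and 7.88% in protrusion 3 (7.57% to 8.20%), against 14.9% in the separated protrusion and 16.8% in protrusion 4. Such intervals cover counting error only, since copies made by PCR are not separate molecules.

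The 3 Igf2bp genes differed in make-up between attached protrusions and the other libraries. Their summed level was 1067 to 1193 CPM in open neural tube and 1248 to 1563 CPM in protrusions, without overlap when scaled to the library total. With the TMM factors used in the tests, 0.966 for open neural tube 14 and 1.13 for protrusion 3, the ranges overlapped. Igf2bp1, the founding member of the family, which localises and stabilises mRNAs such as that of β-actin, stood at 193, 193, 300 and 364 CPM in open neural tubes 9, 10, 13 and 14. It stood at 577, 639 and 513 CPM in attached protrusions 2, 3 and 4, and at 191 CPM in the separated one. All 3 attached protrusions lay above all 4 open neural tubes, and the separated protrusion lay below them. The log2 fold change was 0.77 ± 0.36 over all protrusions (edgeR adjusted p = 0.341) and 1.03 ± 0.26 over attached ones (adjusted p = 0.0798). Over attached protrusions it passed with DESeq2 (adjusted p = 0.00475) and with limma-voom (0.0289), which there called 9.69% and 7.58% of all genes.

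Igf2bp2, which is linked to metabolism and persists in adult tissues, stood lower in the attached protrusions. It stood at 475, 626, 458 and 460 CPM in open neural tubes 9, 10, 13 and 14 and at 317, 325 and 433 CPM in attached protrusions 2, 3 and 4. The separated protrusion held 754 CPM, the highest of the 8 libraries, while every attached protrusion lay below every open neural tube. The log2 fold change over attached protrusions was −0.58 ± 0.20 (edgeR adjusted p = 0.150), and over all protrusions −0.22 ± 0.28 (adjusted p = 0.793), neither past the threshold. Of the 8 tested members, 4 lay wholly higher in attached protrusions (17.9% of all genes did) and 1 wholly lower (6.94%), which is 24.8% of genes in either direction. Over all protrusions 2 lay wholly higher (8.84% of all genes) and 0 wholly lower (4.55%), with 13.4% in either direction.

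Igf2bp3, an oncofetal member of the family, stood at 485, 248, 334 and 369 CPM in the open neural tubes and at 353, 353 and 374 CPM in attached protrusions 2, 3 and 4. The separated protrusion again stood highest, at 618 CPM. The attached protrusions differed among themselves by less than the open neural tubes did, and lay within their range. The log2 fold change was 0.15 ± 0.27 over all protrusions (edgeR adjusted p = 0.859).

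As shares of the Igf2bp reads, which do not depend on scaling between libraries, Igf2bp1 made up 16.7% to 30.5% in the open neural tubes. The attached protrusions had 38.9% to 48.5%. In the separated protrusion it made up 12.2% (exact binomial 95% interval 11.6% to 12.9%). Igf2bp2 made up 38.6% to 58.7% in open neural tube, 24.7% to 32.8% in attached protrusions and 48.3% in the separated one. Igf2bp1 was thus the leading family member in the 3 attached protrusions. In the other 5 libraries it was the least abundant of the 3 by reads. In open neural tube 14 the margin was within counting error. Igf2bp1 made up 30.5% there (interval 29.6% to 31.4%) and Igf2bp3 30.9% (30.0% to 31.8%). Tags do not grow in number with transcript length, but how well each gene's tag is recovered is not known.

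**Figure D2:**
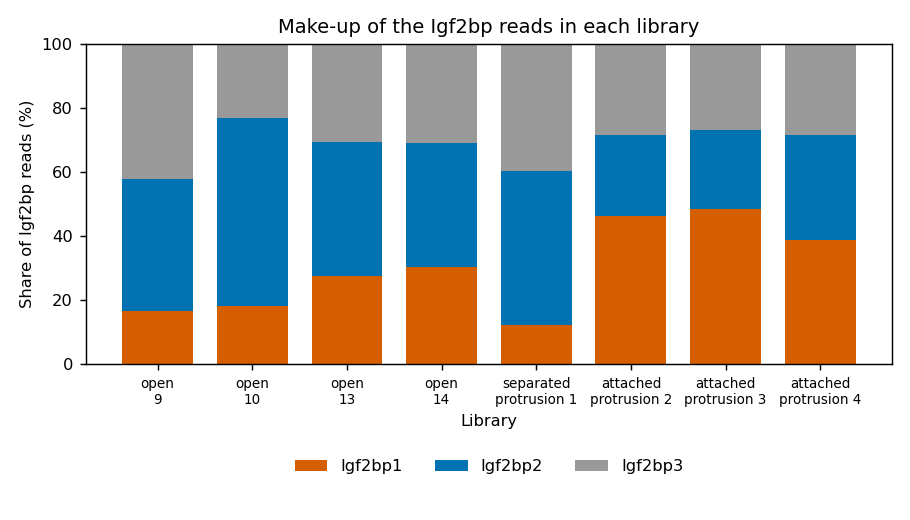
Share of the reads of Igf2bp1 (orange), Igf2bp2 (blue) and Igf2bp3 (grey) in their sum (vertical axis, percent, stacked to 100) in each of the 8 libraries (horizontal axis). Igf2bp1 takes 38.9% to 48.5% in the 3 attached protrusions and 12.2% to 30.5% in the other 5 libraries.

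Grsf1 showed the largest difference of the tested members. It stood at 231, 133, 161 and 118 CPM in open neural tubes 9, 10, 13 and 14 and at 509 CPM in the separated protrusion. Attached protrusions 2, 3 and 4 held 885, 2607 and 607 CPM. Every protrusion lay above every open neural tube, but protrusion 3 stood 2.94 times above the next highest, and there Grsf1 ranked 30th among all genes. The mean was 161 ± 49.8 CPM in open neural tube and 1152 ± 983 CPM in protrusions (SD, n = 4 each). Without protrusion 3 the protrusion mean was 667 ± 195 CPM (SD, n = 3), still 4.15 times the open neural tube mean, where all 4 protrusions gave 7.17 times. The fitted log2 fold change was 2.69 ± 0.48 (edgeR adjusted p = 0.0450) and 2.01 without protrusion 3 (adjusted p = 0.0333).

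The call of Grsf1 was fragile over all 8 libraries although the direction was not. It was lost in 9 of 17 alternatives, with an adjusted p of up to 0.105. With all 8 libraries kept, edgeR gave adjusted p = 0.0648 without the low count filter and 0.0502 without robust fitting. Limma-voom with sample weights gave 0.0804. Leaving out open neural tube 9, 10, 13 or 14 gave adjusted p = 0.0652, 0.0827, 0.0531 or 0.0932, and leaving out protrusion 2 or 4 gave 0.105 or 0.0822. The fitted fold change was 2.01 or more on the log2 scale in all 17. Over attached protrusions it was 2.93 ± 0.45 (adjusted p = 0.0253), a call lost in 5 of 16 alternatives, those without open neural tube 9 (0.0749), 10 (0.0664), 13 (0.0513) or 14 (0.0906) or protrusion 2 (0.0539).

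Pabpc1 rose with far less spread. It stood at 519, 506, 426 and 415 CPM in open neural tubes 9, 10, 13 and 14. The separated protrusion held 1043 CPM, and attached protrusions 2, 3 and 4 held 1534, 1285 and 1502 CPM. The lowest protrusion was thus well above the highest open neural tube. The mean was 467 ± 53.6 CPM in open neural tube and 1341 ± 228 CPM in protrusions (SD, n = 4 each), a ratio of 2.87. The log2 fold change was 1.44 ± 0.18 (edgeR adjusted p = 0.0111), with a 95% interval from 1.03 to 1.84. The call was lost in 4 of 17 alternatives. Those left out open neural tube 9 (adjusted p = 0.0535), 10 (0.0596) or 14 (0.0791), or protrusion 4 (0.0564). Over attached protrusions it was 1.54 ± 0.17 (adjusted p = 0.00976), a call lost in 2 of 16 alternatives, without open neural tube 14 (0.0507) or protrusion 4 (0.0570). Reads of the pseudogene Gm16580 that shares the predicted tag cannot be separated from these counts.

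**Figure D3:**
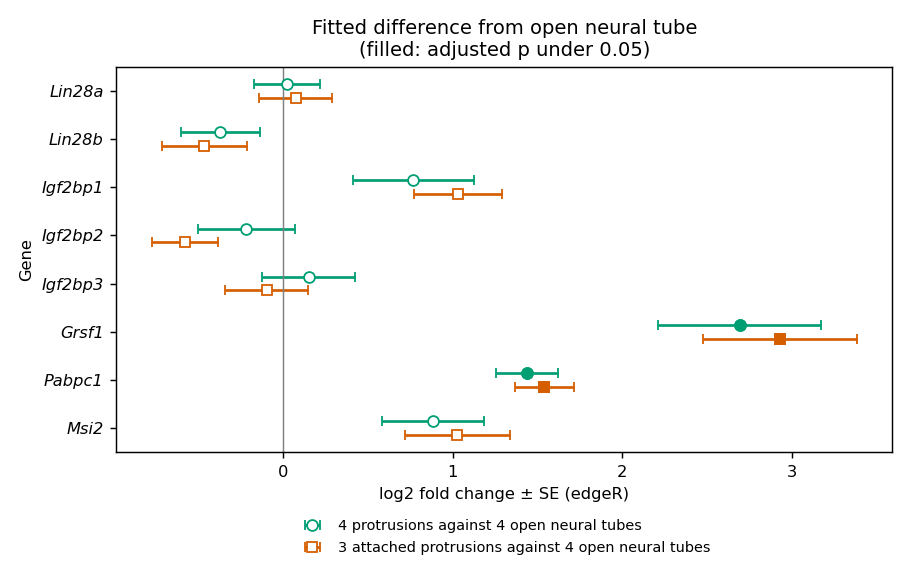
Fitted log2 fold change with its SE (horizontal axis, edgeR) of the 8 tested genes (vertical axis) in 4 protrusions (green circles) and in the 3 attached protrusions (orange squares), each against the same 4 open neural tubes. Filled symbols, for Grsf1 and Pabpc1, passed an adjusted p of 0.05; Igf2bp1 and Igf2bp2 lie on opposite sides of 0.

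The Musashi genes differed from each other in abundance. Msi2, which is broadly expressed in stem cells, stood at 94.9, 103, 39.8 and 69.5 CPM in open neural tubes 9, 10, 13 and 14, and at 102 CPM in the separated protrusion. Attached protrusions 2, 3 and 4 held 169, 190 and 141 CPM, all above every open neural tube. The log2 fold change was 0.88 ± 0.30 over all protrusions (edgeR adjusted p = 0.184) and 1.03 ± 0.31 over attached ones (adjusted p = 0.107). With DESeq2 and limma-voom the attached comparison passed (adjusted p = 0.0444 and 0.0456).

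Msi1, the classic marker of neural progenitors, had 0 reads in all 4 open neural tubes. Protrusion 3 had 654 reads and protrusion 2 had 7, while the separated protrusion and protrusion 4 had 1 each. Only protrusion 3 thus held the transcript above 3 reads by a wide margin, at 57.2 CPM, against 1.00 CPM in protrusion 2 and less in the other libraries. It was left out of the test for low counts, and no fold is given. At the depth of these libraries 0 reads allow up to 0.180 to 0.529 CPM, and for counting error only. For comparison, 3280 genes averaged 5 to 20 CPM as Msi1 did, and 11.5% of their open neural tube values were at 0, while 8 genes (0.244%) were at 0 in all 4. Protrusion 3 held 97.8% of the summed CPM of Msi1, a share reached there by 1 of these 3280 genes, Msi1 itself. This comparison was chosen after the values of Msi1 were seen. Msi1 averaged in that range only through protrusion 3, so nothing is read from these shares. Whether the protrusion 3 reads are many transcripts or copies of a few was not tested.

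The separated protrusion lay outside the range of the attached ones for 6 of the 8 members detected throughout, and within it for Lin28a and Lin28b. The share of all genes for which it did so was not computed, so nothing is read from this count. It is 1 library, so there is no test. Its level was 0.331 times the attached mean for Igf2bp1, 0.372 times for Grsf1, 0.611 times for Msi2 and 0.724 times for Pabpc1. It was 2.11 times for Igf2bp2, 1.72 times for Igf2bp3 and 1.27 times for Lin28b, and for Lin28a 0.849 times. For Igf2bp1 and Msi2 it lay near or within the range of open neural tube, and for Grsf1 and Pabpc1 between open neural tube and the attached protrusions. In the same library Sox1 stood at 108 CPM and Pax6 at 31.6 CPM, where the attached protrusions held 4.01 to 6.85 and 0.612 to 7.21 CPM. Not all neural plate markers went that way. Sox3 was at 0 there, against 23.9 to 50.7 CPM in attached protrusions. Ncam1 (134 CPM) and Cdh2 (103 CPM) lay within the range of the attached ones. T, the Brachyury gene of the streak, stood at 36.8 CPM there, against 379 to 737 CPM in attached protrusions. The part of these neural and streak transcripts in the members' levels was not tested.

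Spread between libraries of 1 group also separated the members. In protrusions the SD of log2 CPM was 0.98 for Grsf1, larger than in 97.2% of 500 genes of like abundance, 0.78 for Igf2bp1 (94.2%) and 0.62 for Igf2bp2 (90.4%). It was 0.29 for Pabpc1 (47.6%) and 0.32 for Lin28a (57.4%). In open neural tube the SD was 0.16 for Pabpc1 (22.4%), 0.17 for Igf2bp2 (23.8%) and 0.24 for Lin28a (48.6%), against 0.48 for Igf2bp1 (83.6%). Lin28a and Pabpc1 were thus as even as genes of their abundance in both groups, while Igf2bp2 was even in open neural tube and uneven over all protrusions. Within the 3 attached protrusions, a setting chosen after seeing the data, the SD was 0.11 for Igf2bp1, 0.30 for Igf2bp2, 0.13 for Igf2bp3 and 0.17 for Msi2, so their spread over all protrusions rested on the separated library. For Grsf1 it was 0.99, as large as with that library.

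Genes that act with the members were described from 10 lists of partners and targets, which hold 156 different genes, of which 134 were tested over all protrusions. Of these, 2 rose and 0 fell with edgeR, where 0.607% of all genes passed. An unadjusted edgeR p under 0.05 was reached by 33, and by 15.3% of all genes. DESeq2 called 17 and 7.2% of all genes, limma-voom 8 and 3.35%, and limma-voom with sample weights 1 and 1.71%. The counts of single lists given below stand beside these shares of all genes. Over attached protrusions 5 rose and 1 fell of 137, where 1.5% of all genes passed. The lists were drawn up with earlier results known, so their counts are a description. The machinery that makes and uses let-7 (processing enzymes, the uridylyl transferases that LIN28 recruits, Argonaute and TNRC6 proteins) had 0 of 15 tested members past the threshold, with 1 at an unadjusted p under 0.05, 1 called by DESeq2 and 0 by limma-voom, and a median log2 fold change of 0.55. Trim71, a let-7 target and stem cell ubiquitin ligase, stood at 2.64 ± 3.12 CPM in open neural tube and 103 ± 100 CPM in protrusions (SD, n = 4 each, edgeR adjusted p = 0.0941). The separated protrusion held 4.91 CPM, within the open neural tube range of 0 to 6.35 CPM. The attached ones held 135 ± 93.0 CPM (SD, n = 3). Trim71 was the gene of this list that DESeq2 called (adjusted p = 0.0226). Dicer1, the most abundant gene of this list, stood at 115 ± 34.1 CPM in open neural tube and 144 ± 18.3 CPM in protrusions (SD, n = 4 each).

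Of 23 tested let-7 targets 1 rose over all protrusions with edgeR, with a median of 0.32 and 13 above 0. An unadjusted p under 0.05 was reached by 8, DESeq2 called 6 (5 higher, 1 lower) and limma-voom 2. Arid3b, an ARID transcription factor, stood at 27.9 ± 13.1 CPM in open neural tube and 165 ± 28.3 CPM in protrusions (SD, n = 4 each; log2 2.50 ± 0.32, edgeR adjusted p = 0.0111). Its call was lost without open neural tube 9 or 14 or protrusion 4. Ccnd1, a G1 cyclin, passed in attached protrusions (log2 1.59 ± 0.31, adjusted p = 0.0492). Nr6a1, an orphan nuclear receptor and the most abundant target, stood at 486 ± 203 and 1230 ± 237 CPM (SD, n = 4 each; edgeR adjusted p = 0.0832), and passed with DESeq2 (adjusted p = 0.00562) and limma-voom. The let-7 seed match occurred 0 times in the 3′ UTR of Ccnd1 and 1 time in that of Arid3b, where 12.8% of genes of like length held at least 1. It occurred 8 times in Nr6a1 and 4 times each in Trim71 and Hmga2.

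Transcripts bound by IGF2BP proteins had 0 of 10 tested members past the threshold over all protrusions with edgeR, DESeq2 or limma-voom, 1 with an unadjusted edgeR p under 0.05, and a median of −0.01. Actb stood at 2489 ± 415 CPM in open neural tube and 2393 ± 448 CPM in protrusions, and Hmga2, an architectural chromatin protein and let-7 target, at 124 ± 37.6 and 212 ± 58.2 CPM (SD, n = 4 each). Over attached protrusions DESeq2 called 1 of the 10, Hmga2 (adjusted p = 0.0473). Among 11 partners of IGF2BP particles (median −0.12) Ybx1, a cold-shock protein that packages mRNA, rose from 593 ± 119 to 1303 ± 243 CPM (SD, n = 4 each; log2 1.05 ± 0.19, edgeR adjusted p = 0.0450). In that list 5 genes had an unadjusted p under 0.05, and DESeq2 and limma-voom called 2 each. With edgeR, Ybx1 was also the 1 of 24 tested genes that rose among other RNA-binding proteins of stem and progenitor cells, a list with a median of 0.29. There 8 had an unadjusted p under 0.05, DESeq2 called 4 (3 higher, 1 lower) and limma-voom 3 (2 higher, 1 lower). Ybx1 passed in attached protrusions at the threshold (adjusted p = 0.0499), a call lost in 10 of 16 alternatives. Over all protrusions the call was lost in 8 of 17 alternatives, among them each open neural tube left out (adjusted p up to 0.148).

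For the Musashi targets 0 of 6 tested genes passed over all protrusions, with 2 at an unadjusted p under 0.05, 1 called by DESeq2 and 0 by limma-voom. Their median was 0.75, and Notch1, the most abundant, stood at 78.7 ± 33.8 and 169 ± 55.3 CPM (SD, n = 4 each). Cdkn1a, a cell cycle inhibitor, passed in attached ones at 43.7 ± 12.1 CPM (SD, n = 3) against 2.42 ± 1.53 CPM (SD, n = 4; adjusted p = 0.0468). Of the relatives of GRSF1 among the hnRNP F/H proteins 0 of 7 passed with edgeR, DESeq2 or limma-voom, 0 had an unadjusted edgeR p under 0.05, and the median was 0.63, with Hnrnph1 at 1421 ± 159 CPM in open neural tube and 1291 ± 250 CPM in protrusions (SD, n = 4 each). In the mitochondrial RNA granule list 0 of 18 passed over all protrusions (median 0.28), with 4 at an unadjusted p under 0.05, 1 called by DESeq2 and 0 by limma-voom. Dhx30, a mitochondrial RNA helicase, passed in attached ones (log2 1.38 ± 0.27, adjusted p = 0.0495).

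Around Pabpc1, 0 of 24 tested poly(A)-binding relatives, cofactors and deadenylases passed, with 8 at an unadjusted p under 0.05, 4 called by DESeq2, 2 by limma-voom and a median of 0.21. Pan2, a deadenylase subunit, stood at 287 ± 42.7 CPM in open neural tube and 174 ± 6.58 CPM in protrusions, and the cap-binding factor Eif4e at 225 ± 23.5 and 373 ± 53.2 CPM (SD, n = 4 each; edgeR adjusted p = 0.0584 and 0.0895), and DESeq2 called both. Pabpn1, the nuclear poly(A)-binding protein, was the most abundant and stood at 1481 ± 341 and 1047 ± 272 CPM (SD, n = 4 each). Of 10 neuronal RNA-binding proteins 0 passed over all protrusions (median −0.03), with 2 at an unadjusted p under 0.05 and 1 called by DESeq2 and by limma-voom. Ptbp2, a splicing regulator of developing neurons, fell in attached ones by 0.90 ± 0.18 on the log2 scale (adjusted p = 0.0492). Ccnd1, Cdkn1a, Dhx30 and Ptbp2 in attached protrusions, each with an adjusted p near the threshold, lost their calls in 7 or 8 of 16 alternatives.

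**Figure D4:**
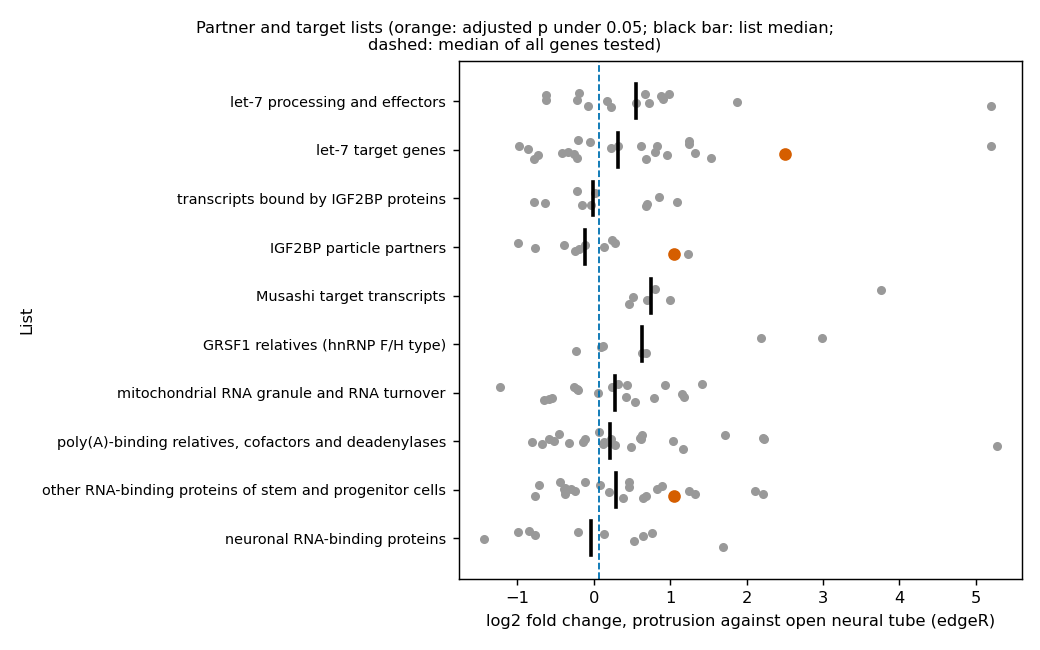
Fitted log2 fold change of each tested gene (points, horizontal axis, edgeR, 4 protrusions against 4 open neural tubes) in the 10 lists of partners and targets (vertical axis), with list medians as black bars and the median of all genes (0.08) as a dashed line. Arid3b and Ybx1, the latter in 2 lists, are the orange points that passed an adjusted p of 0.05.

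The pattern of Grsf1 over the 8 libraries was compared with 5648 tested genes of at least 4 in mean log2 CPM by the root mean square difference of log2 CPM, each gene centred on its own mean. The nearest were Snrnp25 (0.61) and Gbx2 (0.61), followed by Aggf1, Tnfrsf19 and Zyx (each 0.66), where the median gene differed by 1.49. Gbx2, a homeobox transcription factor, held 35.5 to 54.6 CPM in open neural tubes, and 252, 276, 971 and 390 CPM in protrusions 1, 2, 3 and 4. It thus shared with Grsf1 the high value of protrusion 3. Snrnp25, a spliceosomal protein, stood at 11.5 to 16.4 CPM and at 32.2 to 104 CPM, with its highest value in protrusion 2. The points of such a comparison share the same 8 libraries and their depth.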

How the data were processed

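Values are the authors' deposited whole-number counts per gene symbol, not normalized, from SOLiD SAGE libraries of 7 to 12 ng total RNA, per the labels' protocols. The genome build was mm9, per the submitters' processing notes. Which program mapped the tags, and how strand and tags of more than 1 gene were treated, is not given in the sources used. The reference transcripts (GENCODE M21, RefSeq) belong to GRCm38, and coordinates are therefore left out. Groups came from the source names, attached and separated from the morphology labels, and protrusion numbers from the order of listing. CPM are counts scaled to the library total.

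Differences were fitted over all genes in R 4.3.3 with edgeR 4.0.16 (filterByExpr with a minimum count of 10, TMM, robust quasi-likelihood F test, 2-sided, Benjamini-Hochberg adjusted p under 0.05). SEs derive from the F statistic, and log2 CPM used a prior count of 2. DESeq2 1.42.0, limma 3.58.1 (voom, without and with sample weights), other scalings and filters and each library left out were alternatives. The scripts were tested on simulated data. Members, lists and the rule for named genes were chosen with earlier results of these data known: all 9 members, from each list the genes past the threshold in either comparison (up to 4) or the 2 with the smallest p, and its most abundant gene. Of the 156 list genes, 154 were matched in the files.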

Additional observations from a re-analysis of the deposited data

Results flagged for a closer look

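Among the members' groups of 4 libraries, 17 were checked for a library far from the other 3, and 3 were found. The rule flags about 1 in 20 groups of independent, normally distributed values. CPM need not be distributed so, and the groups share libraries, so no excess is read from the 3. Igf2bp2 stood at 626 CPM in open neural tube 10, where the other 3 lay between 458 and 475 CPM. Igf2bp3 stood at 618 CPM in the separated protrusion, where the attached ones lay between 353 and 374 CPM. Msi1 stood at 57.2 CPM in protrusion 3, where the other 3 lay between 0.120 and 1.00 CPM.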

How the results depend on the processing

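The 67 genes past the threshold over all protrusions became 103 with upper-quartile scaling, 795 with DESeq2, 370 with limma-voom and 189 with sample weights, and 1 to 172 with a library left out. The 172 over attached protrusions became 271 with a filter of 5 CPM in 3 libraries, 1111 with DESeq2, 869 with limma-voom, 1012 with sample weights, and 10 to 211 with a library left out. Over all protrusions the count was 1 without open neural tube 9, 8 without 10, 2 without 14, and 172, 19, 22 and 6 without protrusions 1, 2, 3 and 4; over attached ones it was 10, 83 and 23 without open neural tubes 9, 10 and 14, and 17, 25 and 10 without protrusions 2, 3 and 4. Over attached protrusions 87 genes were higher and 85 lower, and 130 and 83 without a scaling factor. With a library left out 0 to 2 members passed in either comparison. The cause of these shifts was not tested. Directions reversed for values near 0: with sample weights over all protrusions, Lin28a at −0.036 and Igf2bp3 at −0.040, and without a scaling factor over attached ones, Igf2bp3 at 0.0047. With a library left out Lin28a ranged from −0.10 to 0.15 and Igf2bp3 from −0.10 to 0.41 over all protrusions, and from −0.10 to 0.23 and −0.26 to 0.10 over attached ones, and Actb from −0.28 to 0.017 over all protrusions. Grsf1, Pabpc1, Igf2bp1 and Msi2 stayed above 0, and Lin28b and Igf2bp2 below 0, in every alternative run. CPM from TMM-scaled library sizes moved none of the members' 18 group means by more than 1 SD. No paired analysis was possible because the labels give no link between open neural tube and protrusion libraries.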
